A study of Mus musculus with 8 samples.

Results

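Clusterin, 4 apolipoproteins and 3 genes of the receptor side of lipoprotein uptake were examined in single endocardium cells with and without *Sox17*. The 8 genes were *Clu*, *Apoe*, *Apoa1*, *Apob*, *Apom*, *Lrp1*, *Lrp8* and *Lrpap1*. They are 8 of the 35560 gene names on a 1-colour Agilent array, and every non-control probe carrying one of these names was taken, which gave 12 of the 55681 probes. All 12 had a usable spot on every array. The genes were selected on earlier results of these data, in which the signals of the same WT and KO cells had been compared. The values of WT against KO cells below are therefore a description and support nothing by themselves.

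Each of the 8 arrays held the amplified cDNA of 1 endocardium cell from the heart tube at E8.5, the stage of 9 somites. The 4 WT cells came from Mesp1+/+ Sox17flox/flox embryos, and the 4 *Sox17* KO cells came from Mesp1Cre/+ Sox17flox/flox embryos. All 8 cells therefore carried the floxed *Sox17* alleles, and only KO cells carried Cre, which the *Mesp1* locus expresses in early mesoderm. Loss of *Sox17* and presence of the Cre allele cannot be told apart. Each cell had been typed by PCR of marker genes before it was placed on an array. Neither the labels nor the methods name the embryo of a cell, so each genotype counts as 1 sample and no p-value was computed. All arrays were in 1 scan of 1 slide, with the WT and KO cells in different columns of it, so that column and genotype cannot be told apart.

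Signals were scaled so that the arrays shared the median of the 7570 probes that the scanner software called well above background on all of them. Values under 50 were then set to 50, a floor of 5.64 on the log2 scale. Cells at the floor are not ordered among themselves. A difference is the mean log2 value of the KO cells minus that of the WT cells, given with the pooled within-genotype SD of the cells (n = 4 each). Between 11370 and 18175 probes were well above background on an array. Of 10 endocardial or endothelial markers, 7 to 10 were well above background in WT cells and 6 to 9 in KO cells, while none of 4 epicardial markers was in any cell. *Sox17* itself, under 2 probes, was well above background in 0 of the 8 cells, so the arrays do not check the genotypes.

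Lipoproteins carry cholesterol and triglycerides between cells, and apolipoproteins are the proteins on their surface. *Apob* forms the backbone of low-density particles, *Apoa1* that of high-density particles, *Apoe* is a ligand for receptors of the lipoprotein receptor family, and *Apom* carries sphingosine-1-phosphate, a lipid signal to endothelium. *Clu*, also called apolipoprotein J, is a secreted chaperone that binds misfolded proteins and terminal complement. *Lrp1* is a large endocytic receptor for *Apoe* and many other ligands, *Lrp8* binds *Apoe* and reelin, and *Lrpap1* is the chaperone that keeps such receptors from binding ligands while they fold.

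The probes on which the results turn are shown here because each level below is the signal of 1 such sequence, and because 2 probes of the same gene did not always give the same result. Coordinates are those of the array files on mm9, sequences are 5′ to 3′ as deposited, and capitals mark AATAAA, the letters of the common polyadenylation signal, searched on the printed strand only and held by 5557 of the 55295 usable probes.
Clu (30 of the 60 bases; chr14:66600325-66600384, plus strand): cgcaactaatccAATAAAagccgccttgcg
Apoe (chr7:20281732-20281791, minus strand): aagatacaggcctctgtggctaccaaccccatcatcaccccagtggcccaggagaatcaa
Lrp1 probe 1 (first 30 bases; chr10:126975573-126975632, minus strand): tggggttagttcaggggaggtggagtcctc
Lrp1 probe 2 (30 of the 60 bases; chr10:127026228-127026287, minus strand): ttggtgtgtcaggcccttcacAATAAAgct
Lrpap1 probe 1 (chr1:169028656-169028715, minus strand): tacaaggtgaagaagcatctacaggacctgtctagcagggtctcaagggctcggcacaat
Lrpap1 probe 2 (first 30 bases; chr5:35434297-35434357, minus strand): ccgcaagggaacctcaagctacaaacttag
The probes of *Lrp1* lay 50655 bases apart, with probe 1 nearer the 3′ end of the gene. The probes of *Lrpap1* were annotated to different chromosomes, 1 and 5, although both carry the same RefSeq transcript. Whether probe 1 lies in a copy of the gene on chromosome 1 could not be checked without the mm9 genome, and this probe, the brighter one, gives the gene's value wherever *Lrpap1* is given by 1 probe.

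Of the 8 genes, 5 were well above background in at least 1 cell, through 6 of the 12 probes, and 2, *Apoe* and *Lrp1*, were so in all 8 cells. Over the whole array, 57.0% of the 35560 genes at their brightest probe and 48.5% of the 55295 usable probes were well above background in at least 1 cell, so the share of detected members was close to that of all features. *Lrp8* passed through KO cell 4 alone, so its direction was fixed by the filter. Among the 6 probes, 1 was at least 5-fold higher in KO cells, that of *Clu*, where 2.83% of the 26833 probes well above background in at least 1 cell were. In the other direction 1 probe was at least 5-fold lower, probe 1 of *Lrpap1*, against 2.85% of all such probes. All KO cells lay above all WT cells for 1 of the 6 probes, again *Clu*, against 1.1%, and all WT cells above all KO cells for 0 of 6, against 0.242%. Nothing is read from these counts, since the genes were chosen with this contrast known.

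**Figure D1:**
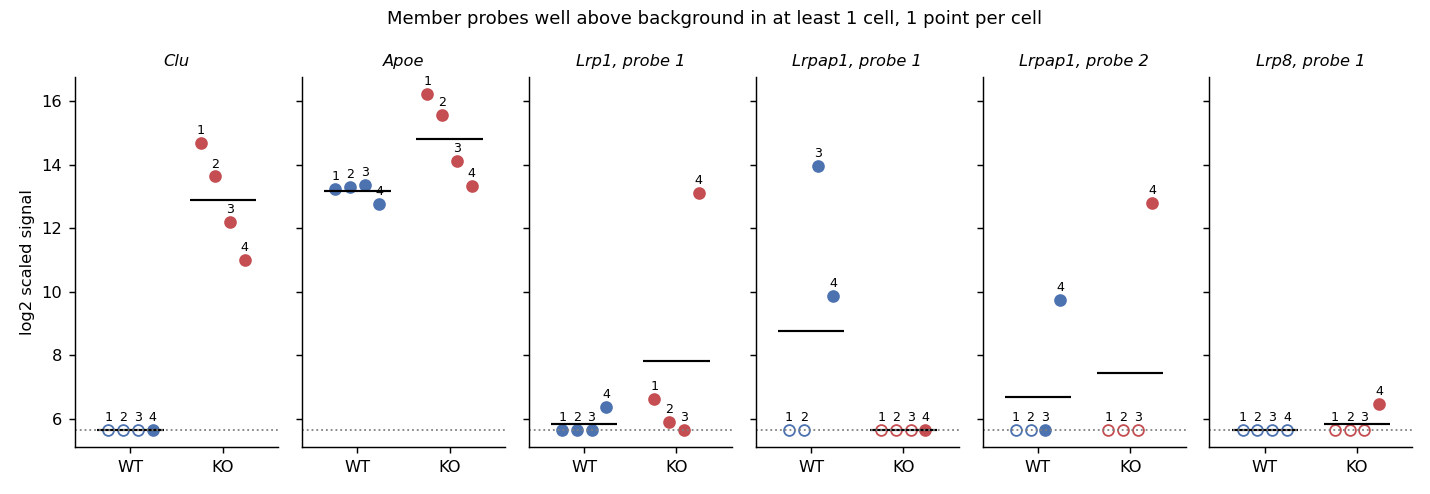
Log2 scaled signal of the 6 member probes well above background in at least 1 cell, with 1 point per cell (numbers are cell numbers, filled points are well above background, bars are means of 4 cells, the dotted line is the floor of 5.64). All KO cells lie above all WT cells for *Clu*, 3 of 4 do for *Apoe*, and KO cell 4 stands apart for *Lrp1*, *Lrp8* and probe 2 of *Lrpap1*.

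*Clu* was near background in WT cells and bright in every KO cell. WT cells 1 to 4 had scaled signals of 4.55, 1.27, 8.08 and 36.4, whereas KO cells 1 to 4 had 26400, 12700, 4690 and 2030. WT cell 4 was the only WT cell well above background, yet it too stayed under the floor, and the genotypes did not overlap. On the log2 scale the KO cells ran from 10.99 to 14.69, and the difference was 7.23 (SD 1.15). Since all 4 WT cells were at the floor, the floor sets this difference, which is a lower limit. The scanner's own 1-sigma error was at most 14.8% of the signal for the 21 member values with a deposited signal over 50, which covers the reading of the array and not the amplification of cDNA from a single cell. When cells were left out 1 at a time, the difference was lowest in the absence of KO cell 1, at 6.63, and highest in the absence of KO cell 4, at 7.86.

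*Apoe* was the only apolipoprotein of the 4 that was detected. WT cells 1 to 4 had scaled signals of 9750, 10000, 10600 and 6940, and KO cells 1 to 4 had 77000, 49100, 17900 and 10400. WT cells lay close together, within an SD of 0.28 on the log2 scale, while KO cells spread with an SD of 1.32. KO cells 1 to 3 lay above every WT cell and KO cell 4 lay within the WT range. The mean was 14.82 in KO and 13.17 in WT cells, a difference of 1.65 (SD 0.96), or 3.15-fold, under the 5-fold used for counting here. It was between 1.18 without KO cell 1 and 2.15 without KO cell 4 when cells were left out. The ranking of the KO cells was the same as for *Clu*, with KO cell 1 highest and KO cell 4 lowest for both genes.

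*Apoe* and *Apoa1*, which forms high-density particles, each had 10 spots on every array, so the error within an array could be read directly. All 76 usable spots of *Apoe* were well above background, and their coefficient of variation within an array was between 2.28% and 5.12%. The scaled signal of *Apoe* ranged 11.1-fold between the lowest and highest cell. Of the 77 usable spots of *Apoa1*, 0 were well above background, with deposited signals between 1.56 and 4.52 over all arrays.

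**Figure D2:**
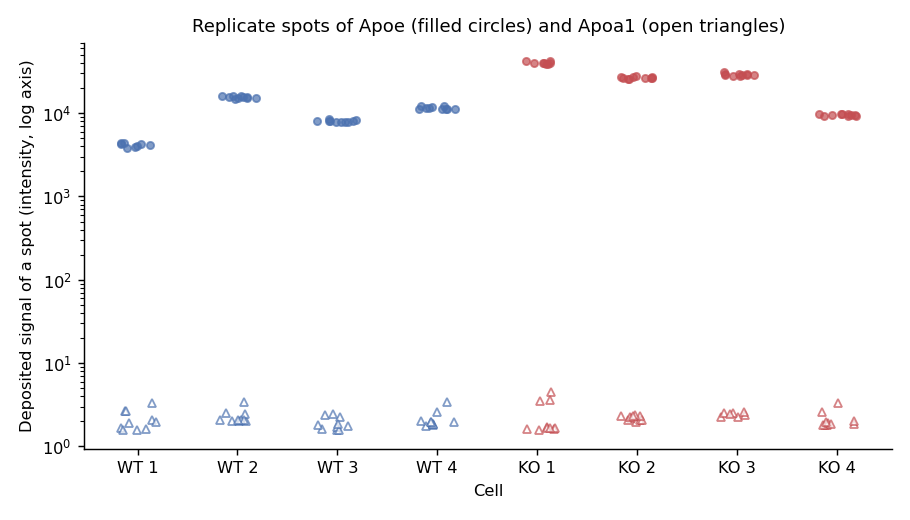
Deposited signal (log axis) of every usable spot of *Apoe* and *Apoa1* in each cell, before scaling between arrays. The spots of *Apoe* lie between 3820 and 42100 and cluster tightly within a cell, and all spots of *Apoa1* lie between 1.56 and 4.52.

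The other apolipoproteins were not detected. *Apob*, the backbone of low-density particles, was well above background in 0 of 8 cells at both of its probes, with scaled signals from 1.26 to 6.31. *Apom*, the carrier of sphingosine-1-phosphate, was so in 0 of 8 cells with scaled signals from 1.51 to 11. No difference is given for these genes or for *Apoa1*, because none was well above background in any cell of either genotype. Markers of visceral endoderm and liver, where these genes are typically expressed, were low as well: of 10 such markers 1 or 2 were well above background in a cell, and *Afp*, *Ttr*, *Foxa2* and *Hnf4a* were in 0 of 8 cells. The exception in every cell was *Apoa2*, described below.

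Among the receptors, *Lrp1* was detected in all cells but was bright in only 1 of them. At probe 1, WT cells 1 to 4 had scaled signals of 23.8, 12.2, 23.9 and 83.4, and KO cells 1 to 4 had 98.9, 59.3, 12.3 and 8830. WT cells 1 to 3 and KO cell 3 were under the floor although well above background, and the genotypes overlapped. The difference was 1.99 (SD 2.53), less than the spread between cells, and it was 0.23 without KO cell 4. Probe 2 was well above background in 0 of 8 cells, with scaled signals from 1.96 to 6.07, KO cell 4 included. It is annotated to another transcript record than probe 1 and lies further from the 3′ end. It may therefore not report the same transcript, and its low signal does not check that of probe 1.

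*Lrp8*, the receptor for *Apoe* and reelin, was well above background in KO cell 4 alone. Its scaled signal at probe 1 was between 1.12 and 4.73 in the other 7 cells and 88.5 in KO cell 4. Against WT cells, in which it was nowhere well above background, the bound on the fold of the KO mean was 1.15. The floor and that 1 cell set this bound, so it gives no direction. The difference was 0.00 without KO cell 4 and 0.00 with a floor of 200. Probe 2 of *Lrp8*, 4057 bases further from the 3′ end, was well above background in 0 of 8 cells.

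*Lrpap1*, the receptor chaperone, gave opposite results at its probes. At probe 1, WT cells 1 to 4 had scaled signals of 3.54, 1.31, 16000 and 934, and KO cells 1 to 4 had 4.02, 5.8, 1.79 and 24.9. WT cells 3 and 4 were bright, and the other 6 cells were at the floor, so the floor sets the KO mean. The difference was -3.14 (SD 2.82), and it was -1.41 without WT cell 3. At probe 2, WT cells 1 to 4 had 4.16, 1.3, 12 and 860, and KO cells 1 to 4 had 14.9, 20.6, 2.48 and 7180. Here WT cell 4 and KO cell 4 were bright, and the difference was 0.77 (SD 2.92). Both probes were well above background in WT cells 3 and 4 and KO cell 4, so the probes gave the same detection calls, but only in WT cell 4 were both above the floor. No direction between the genotypes can be given for *Lrpap1*, since its probes differ in sign and each difference is close to or under the spread between cells.

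KO cell 4 was the brightest cell for *Lrp1*, *Lrp8* and probe 2 of *Lrpap1* and the lowest KO cell for *Clu* and *Apoe*. It also had 8 of 9 cardiomyocyte markers well above background and 7 above the floor. The summed scaled signal of those markers was 31600 in it, against 318 to 38400 in WT cells and 1040 to 48800 over all KO cells. In that cell the sarcomere gene *Tnnt2* was at 13.26 and *Myl7* at 12.64, while *Myh6* and the cardiac transcription factor *Nkx2-5* were at the floor. Of 3 smooth muscle markers, *Acta2* was at 12.86 in it, *Tagln* at 8.22 and *Cnn1* at the floor, and *Acta2* was higher, at 13.80, in WT cell 2. WT cell 2 had 8 of 9 cardiomyocyte markers well above background as well, and *Lrp1* and *Lrpap1* were at the floor there. KO cell 1, brightest for *Clu* and *Apoe*, had the highest cardiomyocyte sum of all cells, 48800, with 5 of 9 such markers well above background. It also had the fewest endocardial or endothelial markers well above background, 6 of 10, and their lowest sum, 7050. The part of these markers in the results was not tested.

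Macrophages are a known source of *Apoe*. Of 5 macrophage markers, 3 were well above background in every WT cell and 2 or 3 in KO cells, with summed scaled signals from 5770 to 24300 in WT and 5300 to 69200 in KO cells. The pan-leukocyte gene *Ptprc* and the microglial and macrophage receptor *Cx3cr1* were well above background in 0 of 8 cells. *Cd68* was well above background in 7 of 8 cells, although it stayed at the floor throughout. Nearly all of that sum came from 1 of 3 probes of *Itgam*, which was between 12.34 and 16.05 in all cells. The other 2 were at the floor, although each was well above background in 7 of 8 cells. KO cell 1, the brightest cell for *Apoe*, had the highest sum and the highest *Itgam*. *Csf1r*, the receptor of a macrophage growth factor, was between 6.30 and 10.70 at its brightest probe, with a difference of 0.91 (SD 1.88). Its second probe was also well above background in all 8 cells and differed by 1.54 (SD 0.88), and its remaining probe was so in 0 of 8. The part of these markers in the result for *Apoe* was not tested.

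Beyond the 8 genes, 98 genes of lipoprotein and sterol handling were listed in 5 groups, and 96 of them had a usable probe. Each was taken at its brightest probe. Of the 64 that were well above background in at least 1 cell, 2 were at least 5-fold higher in KO cells (3.12%, against 3.22% of 20265 genes counted the same way) and 4 at least 5-fold lower (6.25%, against 3.24%). These counts turned on single cells, with 5 higher and 3 lower without WT cell 4 but 1 higher and 7 lower without WT cell 1. The number higher was 1 without WT cell 3 and 4 without KO cell 1, 2 or 4. The shares of all genes with a cell left out are not given. In all, 66.7% of the 96 listed genes were detected, against the 57.0% of all genes. The median difference was 0.00 over the 64 genes and 0.00 over all genes. None of the 6 had cells that did not overlap between the genotypes, and none of these counts was tested.

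**Figure D3:**
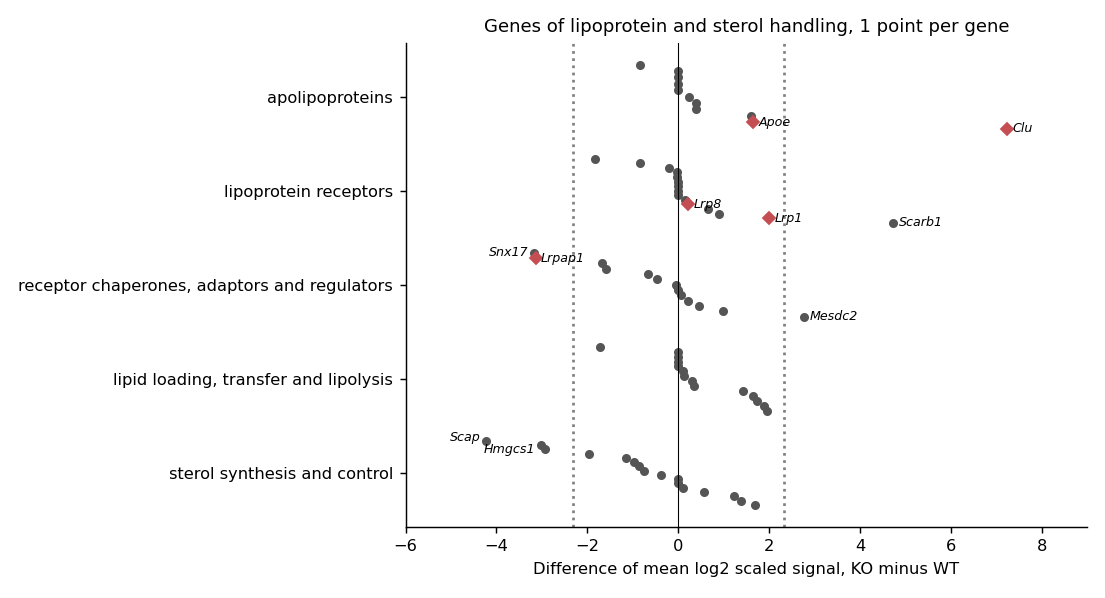
Difference between the mean log2 scaled signals of KO and WT cells for each gene well above background in at least 1 cell, in 5 lists (dark grey points, 1 per gene at its brightest probe), with the 8-gene set's detected members as red diamonds and 5-fold as dotted lines. *Clu* lies at 7.23, and the named grey genes are 5 of the 6 that were at least 5-fold apart.

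Of 16 other genes on the array listed with the apolipoproteins, 9 were well above background in at least 1 cell and 0 were 5-fold apart. Not all of the 16 encode apolipoproteins, and *Apoa1bp*, counted among the 9, does not. The brightest was *Apoa2*, a protein of high-density particles, between 10.14 and 11.71 in all 8 cells with a difference of 0.24 (SD 0.66), but its second probe was well above background in 0 of 8 cells. *Apoa1bp*, which encodes an enzyme that repairs NAD(P)H hydrates and binds *Apoa1*, was between 5.64 and 13.65 and differed by 1.6 (SD 2.97). *Apoc1* lies next to *Apoe* in the RefSeq gene table (GRCm38.p6). It was well above background in all 8 cells, yet its levels did not follow those of *Apoe*: it was highest in KO cell 3, at 12.71, and WT cell 4, at 11.95, and at the floor in KO cell 2. Its difference was 0.38 (SD 3.15).

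Of 23 other receptor genes, 13 were well above background in at least 1 cell, with a median difference of 0.00. *Scarb1*, the receptor for high-density lipoprotein, was the 1 that was at least 5-fold higher in KO cells. WT cells 1 to 4 were at 5.64, 11.81, 5.64 and 10.81 and KO cells 1 to 4 at 12.90, 14.21, 13.97 and 11.75, so KO cell 4 lay just under WT cell 2. The difference was 4.73 (SD 2.46), but at its dimmer probe all cells were at the floor. *Stab1*, a scavenger receptor of endothelium, was bright in both genotypes, between 10.15 and 13.93, and differed by -0.03 (SD 1.70). *Ldlrad3* and the Wnt co-receptor *Lrp5* were also above the floor in every cell, with differences of 0.00 (SD 1.31) and -0.85 (SD 1.18). *Vldlr*, *Lrp2* and *Cd36* were well above background in 0 of 8 cells.

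Of 16 chaperones, adaptors and regulators, 12 were well above background in at least 1 cell, with a median difference of -0.02. *Mesdc2*, a chaperone for lipoprotein receptors, was higher in KO cells by 2.76 (SD 3.24), and *Snx17*, a sorting protein that recycles *Lrp1*, was lower by a difference of -3.18 (SD 3.43). Both differences were within the spread between cells. The brightest of the list were *Hspg2*, *Nr1h2* and *Mesdc2*. *Hspg2*, the proteoglycan perlecan, differed by -0.66 (SD 2.77) at its brighter probe. At its other probe, well above background in 2 KO cells and 0 WT cells, it differed by 1.36 (SD 1.21). *Nr1h2*, a sterol-sensing nuclear receptor, differed by 0.99 (SD 0.94).

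Of 21 genes of lipid loading, transfer and lipolysis, 14 were well above background in at least 1 cell and 0 were 5-fold apart, with a median difference of 0.20. *P4hb*, a subunit of the complex that loads lipid onto *Apob*, was bright throughout, between 10.17 and 14.17, with a difference of 1.43 (SD 1.16). Its partner in that complex, *Mttp*, was well above background in 0 of 8 cells, as were *Lpl* and *Lcat*, a lipase and an enzyme that esterifies cholesterol on particles. *Sar1a*, a secretory GTPase, differed by 1.95 (SD 3.87) at its brighter probe and by 0.44 (SD 2.83) at the other. *Npc2*, which exports cholesterol from lysosomes, differed by -1.72 (SD 1.95).

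Of 20 genes of sterol synthesis and control, 16 were well above background in at least 1 cell, with a median difference of -0.56, and 3 (18.8%) were at least 5-fold lower in KO cells, against 3.24% of all genes, and 0 were higher, against 3.22%. The list was not tested. *Scap*, the escort of the sterol-sensing transcription factors, was at 14.64, 5.64, 12.30 and 6.91 in WT cells 1 to 4 and at the floor in all 4 KO cells, a difference of -4.23 (SD 3.04). *Hmgcs1*, an early enzyme of the mevalonate pathway, differed by -3.02 (SD 3.21) at its brighter probe and by 1.21 (SD 1.71) at the other. *Fdps*, also among the brightest of the list, differed by -0.98 (SD 3.22).

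The genes whose pattern over the 8 cells was most like that of *Clu* were sought among 8725 other genes that were above the floor and well above background in at least 3 cells. Pearson's r over the 8 log2 values was above 0.9 for 12 of them, and with so many genes and 8 cells on 1 slide it is a description only. The first 2 were intervals that the array names by position, on chromosome 17 from 88993214 to 89025839 (r = 0.979) and on chromosome 8 from 26870059 to 26870530 (r = 0.974). They were followed by *Mrps34*, a mitochondrial ribosomal protein (r = 0.947), and *Hey1*, a transcriptional repressor downstream of NOTCH (r = 0.921). Next came *Dab2ip*, a Ras GTPase-activating protein (r = 0.916). *Clu* was at the floor in every WT cell and bright in every KO cell, so a high r largely restates that difference. All of these were higher in KO cells, by 2.92, 1.99, 6.37, 6.84 and 6.34 in that order. The interval on chromosome 8 passed the filter through KO cells alone.

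**Figure D4:**
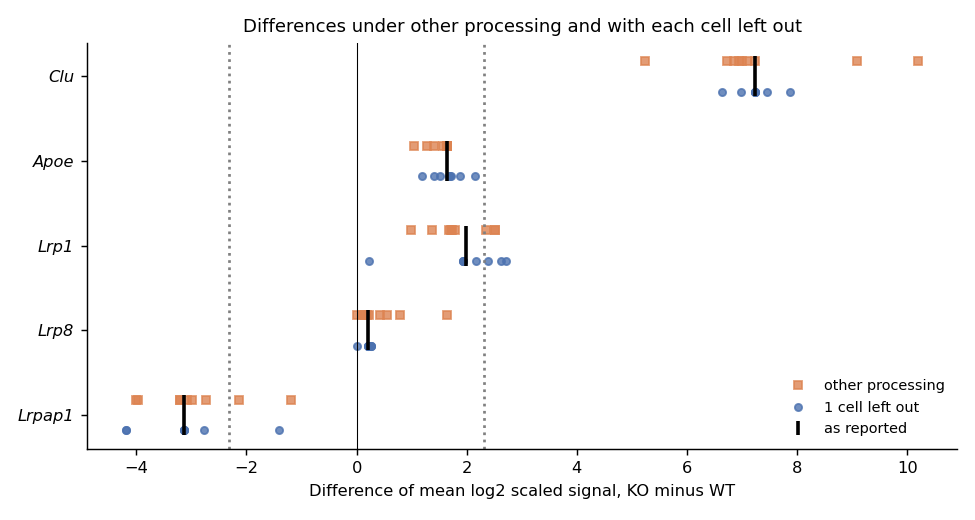
Difference between the mean log2 scaled signals of KO and WT cells for the 5 detected members as reported (black bars), under other processing (orange squares) and with each cell left out (blue points), with 5-fold as dotted lines. *Clu* stays above 5-fold throughout, between 5.23 and 10.19, and *Lrp1* falls to 0.23 in the absence of KO cell 4.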

How the data were processed

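The authors deposited the scanner output of 8 1-colour arrays (Agilent Feature Extraction 12.0.2.2, design 028005, probe coordinates on mm9), 1 per cell. The intensity values deposited by the authors were background-subtracted and detrended within each array and not normalized between arrays. Other deposited columns used were the flags of the scanner software for outliers, saturation and signal over background.

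After removal of control and outlier spots, replicate spots were averaged by probe. Of 55681 probes, the 55295 measured on every array were retained. No spot was saturated. The detection call of a probe was that of the majority of its spots. Arrays were scaled to the 50th percentile of 7570 probes, then a floor of 50 was set. The methods name the same floor and percentile but list the floor first, do not restrict the percentile to such probes and divide each gene by its median, a step not taken here. Symbols were updated by accession for 28131 probes (RefSeq, GRCm38.p6). All 12 member probes kept their deposited gene name. A gene is given by its probe with the highest mean. In a gene not well above background in a genotype, a fold is a bound against the lowest signal well above background, with the floor.

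The members, gene lists and rule for named genes were chosen with earlier results of these data known. The rule names all members, the 5 genes most like *Clu*, and in each list the genes 5-fold apart without overlap and the 3 brightest. Other list genes are named because they were 5-fold apart or for their role, and these were chosen after their values were seen. Alternatives were the 75th percentile, all probes for the percentile, quantile normalization, the floor before scaling, floors of 10 and 200, normexp with an offset of 50, the mean of all probes, another detection call, each cell left out and, added after the data were seen, no floor. Values of some listed genes, which remain in the counts, are not reported here. Steps were tested on simulated data. The raised and lowered probes there had base levels above the floor, so values at the floor were not covered. Python 3.11.15, numpy 2.4.6, pandas 2.3.3, matplotlib 3.10.9, R 4.3.3 and limma 3.58.1 (normexp) were used.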

Additional observations from a re-analysis of the deposited data

Results flagged for a closer look

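Cells standing apart from others of their genotype were sought with Dixon's ratio at its usual critical value for 4 samples, in which the distance of an extreme cell to its closest neighbour is taken as a share of the full range. It was computed for the 9 groups of member values that were not all at the floor. For untied values chance passes about 1 in 20 groups, or 0.45 of 9, and 5 passed. That rate does not hold for groups with cells tied at the floor, and the groups share cells. The 5 therefore cannot be compared with 0.45. The ratio was 0.868 for *Lrp1* probe 1 in KO cells, with KO cell 4 above the others. It was 1.0 for *Lrp1* probe 1 in WT cells (WT cell 4), *Lrp8* probe 1 in KO cells (KO cell 4), and *Lrpap1* probe 2 in WT cells (WT cell 4) and KO cells (KO cell 4). In these 4 groups the other 3 cells were at the floor, which sets the ratio to 1.0.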

How the results depend on the processing

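The difference of *Apoe* stayed between 1.04 and 1.65, that of *Lrp1* between 0.99 and 2.52 and that of *Lrpap1* between -4.01 and -1.19 under the 9 processing alternatives. *Clu* was at 9.09 with a floor of 10, 5.23 with a floor of 200 and 10.19 with no floor. *Lrp8* was at 0.79 with a floor of 10, 0.56 with normexp and 1.65 with no floor. With quantile normalization, a floor of 10 or no floor, 2 member genes and not 1 were at least 5-fold higher in KO cells, and with a floor of 200 or the mean of all probes 0 were at least 5-fold lower. Of the other listed genes, 1 was at least 5-fold higher with all probes for the percentile, 5 were higher and 7 lower with a floor of 10, 1 was higher and 1 lower with a floor of 200, and 7 were higher and 8 lower with no floor. The shares of all genes at these settings are not given, so nothing is read from these counts. The looser detection call counted 7 member genes in place of 5.

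With each cell left out, *Clu* ran from 6.63 to 7.86, *Apoe* from 1.18 to 2.15, *Lrp1* from 0.23 to 2.71, *Lrp8* from 0.00 to 0.27 and *Lrpap1* from -4.18 to -1.41. Members at least 5-fold higher numbered 1 to 2 and those lower 0 to 1, the latter 0 without WT cell 3. A second member, *Lrp1*, passed 5-fold without KO cell 1, 2 or 3, which gives KO cell 4 more weight. Other listed genes at least 5-fold higher numbered 1 (without WT cell 1 or 3) to 5 (without WT cell 4) and those lower 3 (without WT cell 4) to 7 (without WT cell 1). The shares of all genes with a cell left out are not given, so nothing is read from these counts either. Members well above background numbered 4 without KO cell 4. No paired analysis was possible because the results come from no test and cell numbers do not tie cells of the genotypes together. Low signals limit most values: 3 of the 8 genes had no level, and 4 of the 5 others had cells at the floor. The number of arrays limits the precision.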

Other observations

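*Apoa2*, *Ldlrad3* and *Itgam* had in common that their brightest probe was above the floor in all 8 cells. Every other probe of these genes on the array was at the floor in all of them. Those other probes were well above background in 0 of 8 cells for *Apoa2* and *Ldlrad3*, but in 7 of 8 for each of *Itgam*. *Pltp*, which transfers phospholipids between lipoproteins, was at the floor in all 4 WT cells and in KO cell 4 and between 7.77 and 8.45 in KO cells 1 to 3, the 3 KO cells in which *Apoe* exceeded every WT cell. It was chosen after its values were seen. Among the genes most like *Lrp1* over the 8 cells were *Trip12*, *Srf* and *Abca3*, with r of 0.990, 0.989 and 0.989, each highest in KO cell 4. *Lrp1* was at 13.11 in that cell and at or near the floor in the others, so that 1 cell largely sets these r.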
